A study of Arabidopsis thaliana with 6 samples.

Results

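The chromosome arms of Arabidopsis carry many small islands in which monomethylated lysine 27 of histone H3 (H3K27me1) and methylated cytosine (5mC) were found together. An island here is a domain from the H3K27me1 list that is at most 1200 bp wide, has at least 50% of its width in domains of the 5mC list, and has its midpoint outside the pericentromeres, the gene-poor sequence around each centromere (4.6 to 5.9 Mb per chromosome, 26.8 Mb in all). Islands were thus chosen by their width and by their overlap with 5mC domains, values that are described here and not tested. The rule was met by 1359 of the 13068 H3K27me1 domains. It left out 4838 arm domains of the same widths that touched no 5mC domain and 178 with 5mC over less than 50% of the width. It also left out 450 wider arm domains with both marks and 2770 narrow pericentromeric domains with both marks. Of the 6375 short arm domains of H3K27me1, 21.3% were islands, a share that depends on the limits set by the rule.

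Young leaves came from wild-type plants of the accession Columbia-0, from which the reference genome was made. All plants were grown in soil with 8 h of light and 16 h of dark at 22.5 °C and received no treatment. Chromatin immunoprecipitation for H3K27me1 was done on 2 samples, immunoprecipitation of methylated DNA (MeDIP) on 2 samples, and 2 samples were MeDIP input. The deposited lists give 1 read count per domain and none per replicate, so that the comparisons below carry no replicate error and no test. Shares are given with 95% exact binomial (Clopper-Pearson) intervals and medians with 95% order-statistic intervals. These intervals cover counting error only, and neighbouring domains are not independent.

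H3K27me1 is set in plants by the methyltransferases ATXR5 and ATXR6 and is best known from heterochromatin, where it keeps transposons silent and restrains extra rounds of DNA replication. Cytosine methylation in plants occurs at CG, CHG and CHH sites (H being any base but G) and is kept by MET1, CMT3 and CMT2 and set anew by DRM2 under the guidance of small RNAs. On the arms it is known from transposons and repeats, often short ones near genes, and in the CG context from the bodies of many expressed genes.

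The islands divided between genes and sequence without annotated genes. The midpoint lay in a protein-coding gene in 659 islands (48.5%, interval 45.8 to 51.2%). It lay outside any annotated gene in 431 (31.7%, 29.2 to 34.3%), in a pseudogene in 229 (16.9%, 14.9 to 18.9%) and in a gene for a non-coding RNA in 40 (2.94%, 2.11 to 3.99%). Protein-coding genes take up 64.7% of all arm bases and sequence without genes 31.6%, so that the islands held fewer protein-coding midpoints than the arms as a whole and about as many outside genes. Pseudogenes take up 2.33% of arm bases and RNA genes 1.38%. The gene table has no class for transposable elements and lists transposon copies among the pseudogenes.

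Arm domains of H3K27me1 with the same widths but no 5mC were almost all genic. Their midpoint lay in a protein-coding gene in 95.6% (94.9 to 96.1%) and outside genes in 1.61% (1.28 to 2.01%). The intervals of the islands and of these domains did not overlap in any of the 4 annotation classes. They cover counting error only, and neighbouring domains are not independent. The wider arm domains with both marks lay mostly in pseudogenes (66.2%), with 22.9% in protein-coding genes and 10% outside genes. The narrow domains with both marks in pericentromeres lay outside genes in 50.1%, in pseudogenes in 35.5% and in protein-coding genes in 12.0%. The short arm islands thus had the highest protein-coding share of the 3 sets with both marks.

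**Figure D1:**
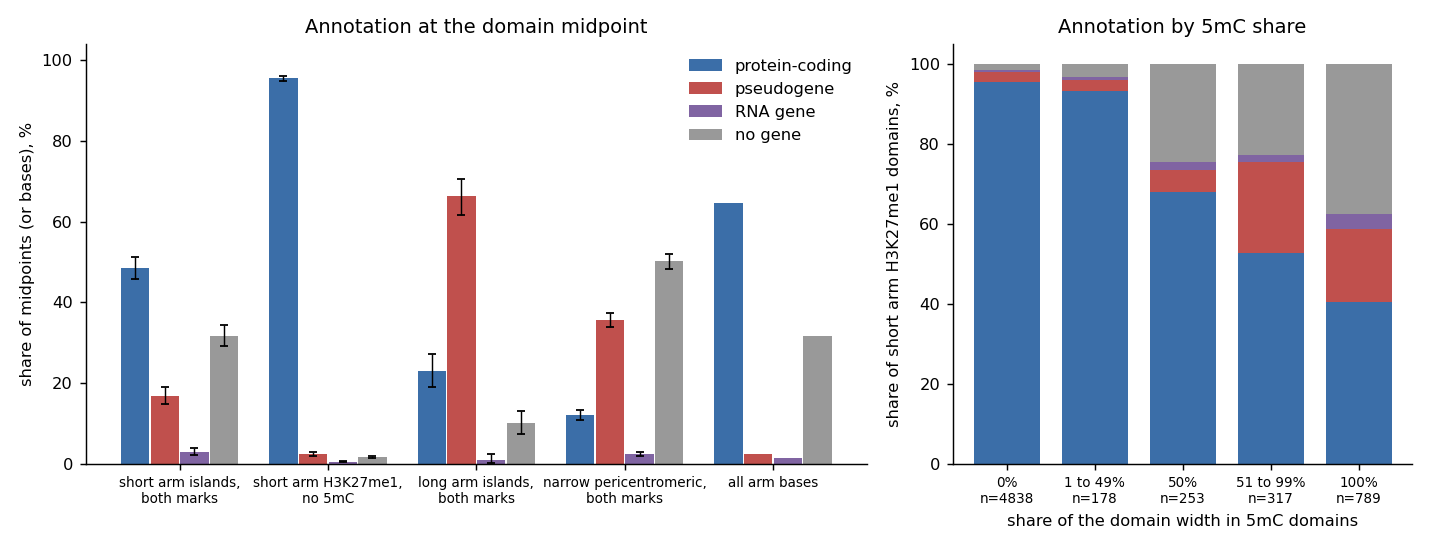
Left, share of domain midpoints in each annotation class (%, bars start at 0) for the short arm islands, 3 comparison sets and all arm bases, with 95% exact binomial intervals for the domain sets. Right, the same classes for short arm H3K27me1 domains by the share of their width in 5mC domains; the protein-coding share went from 95.6% without 5mC to 40.6% in domains wholly within 5mC.

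The annotation differed with how much of a domain lay in 5mC. Among short arm domains with 1 to 49% of the width in 5mC, which fall just outside the rule, 93.3% had a protein-coding midpoint. The share was 68.0% in the 253 islands at exactly 50%, 52.7% in the 317 between 51 and 99%, and 40.6% in the 789 that lay wholly within 5mC domains. Islands outside genes made up 24.5% at 50%, 22.7% between 51 and 99% and 37.6% at full overlap. Pseudogenes went from 5.53% of the islands at 50% to 22.7% between 51 and 99% and 18.1% at full overlap. Width is mixed into these courses. No island of 300 bp can fall between 51 and 99%, while 332 of the 789 at full overlap were 300 bp wide. Of all islands of 300 bp, 44.1% lay outside genes and 8.55% in pseudogenes. The step between 1 to 49% and 50% lies at the limit of the rule and coincides with the grid of the lists, since the 101 islands of 300 bp at exactly 50% hold a 5mC domain over 1 of the pair of 150-bp windows that fit into them.

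Island width sorted pseudogenes from sequence without genes. Widths come in steps of 300 bp, with 433 islands of 300 bp, 513 of 600 bp, 261 of 900 bp and 152 of 1200 bp. From the narrowest to the widest class, the share in pseudogenes went from 8.55% to 16.0%, 24.1% and 30.9%. The share outside genes went from 44.1% to 30.4%, 19.5% and 21.7%. Protein-coding genes held 43.0 to 54.0% in every width class, with no steady direction. Just outside the width limit, 73 of the 257 arm domains of 1500 bp had at least 50% of their width in 5mC, and 31.5% of these had their midpoint in a pseudogene.

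The 2 marks rarely had the same limits. In 625 islands (46.0%) the 5mC domain reached beyond the H3K27me1 domain on at least 1 side while covering it wholly, and in 164 (12.1%) both had the same limits. In 311 (22.9%) the 5mC lay inside the H3K27me1 domain, and in 259 (19.1%) the domains were staggered. The arrangement went with the annotation: 63.3% of the islands with 5mC inside the H3K27me1 domain were in protein-coding genes, against 39.4% of those that the 5mC domain outreached. The grids differ (300 bp for H3K27me1 and 150 bp for 5mC), which limits how exactly limits can coincide.

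Most islands met a 5mC domain of their own. The 1310 5mC domains that touched islands had 1 island each in 1250 cases and 2 in 60. The 5mC domains had a median width of 750 bp (quartiles 450 and 1050 bp), from 150 to 14850 bp. A 5mC domain of at least 2000 bp was met by 105 islands (7.73%). In sum the islands covered 855 kb, of which 85.2% was in 5mC domains. They made up 0.926% of arm bases and 32.1% of the arm bases found in both lists.

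Sequence around the islands changed over short distances. At 50 bp from the midpoint, 91.7 to 92.3% of positions lay in 5mC domains; at 550 bp the values were 29.0% on the right side and 31.6% on the left, and at 1050 bp 16.9% and 18.0%. The high 5mC share near the midpoint is largely set by the rule. Protein-coding genes showed a local peak at the midpoint with a dip on both sides. The share of positions in them was 48.6% at the centre, 38.1 to 39.1% at 550 bp and 54.9 to 56.0% at 2950 bp. Around short arm domains without 5mC, this share was 95.5% at the centre, 79.7 to 80.1% at 550 bp and 66.6 to 67.6% at 2950 bp. A shallow dip was present there too, with 65.6% at 1550 bp on the left and 65.8% at 1350 bp on the right. Midpoints of islands inside genes and outside genes are mixed in these averages.

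**Figure D2:**
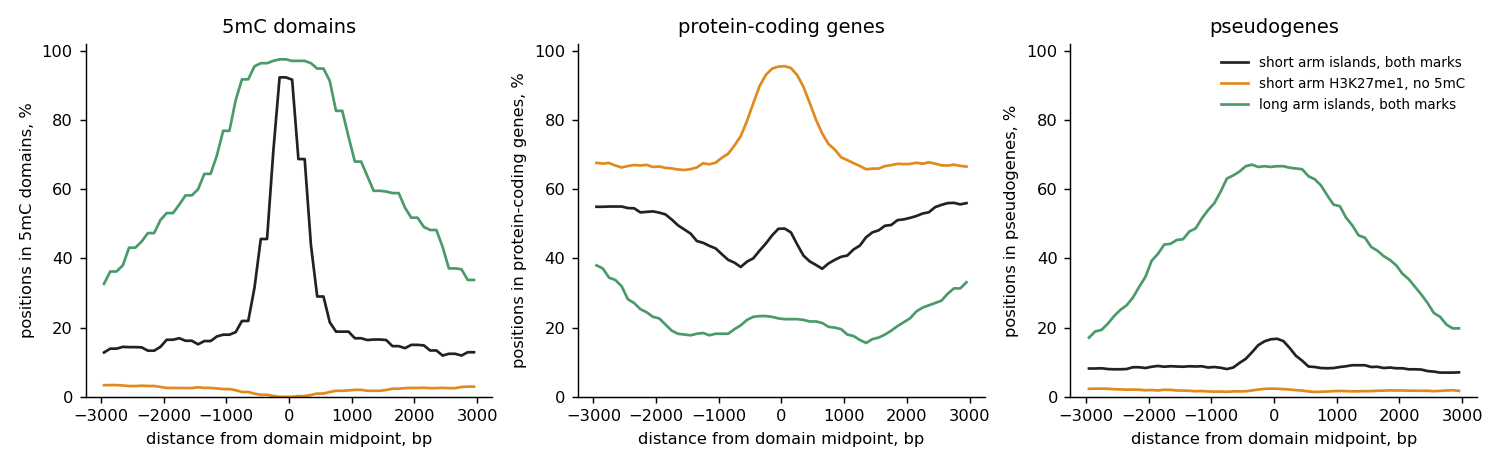
Share of positions (%) lying in 5mC domains, protein-coding genes and pseudogenes against the distance from the domain midpoint (bp, steps of 100 bp) for the short arm islands, short arm H3K27me1 domains without 5mC and wider arm domains with both marks. The islands stand as a narrow 5mC peak (92.3% near the midpoint, 16.9% at 1050 bp), whose height is largely set by the rule. Protein-coding sequence has a local peak at the midpoint (48.6%) within a wider dip.

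The reads that called the islands were modest in number. An island held 114 to 2034 H3K27me1 reads, with a median of 250 (quartiles 165 and 395). Per kb, the median was 446 H3K27me1 reads (437 to 456), with quartiles of 392 and 555. Short arm domains without 5mC had 402 reads per kb (400 to 403), narrow pericentromeric domains with both marks 483 (477 to 490) and wider arm domains with both marks 630 (609 to 649). The islands lay between the first 2 of these sets. No H3K27me1 domain had under 114 reads, so that a 300-bp domain cannot have under 380 reads per kb, and the lower end of these densities is set by domain calling.

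The 5mC domains over the islands had a median of 1207 reads per kb (1180 to 1233), with quartiles of 907 and 1636. The median was 1120 for narrow pericentromeric and 1662 for wider arm domains with both marks. Reads per kb of the 2 marks come from separate libraries whose depths are not known here, and they are not compared with each other. Across the 1359 islands the densities of both marks rose together weakly, with a Pearson r of 0.34 on the log10 scale and a Spearman rho of 0.30. This is a description across positions of 1 genome, and the 2 values of each point share their position and base composition.

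Pseudogene islands had the highest median density of both marks, though not all intervals were separate. Their median was 528 H3K27me1 reads per kb (493 to 562) and 1333 5mC reads per kb (1266 to 1410). Islands in protein-coding genes had 428 (421 to 440) and 1144 (1111 to 1187). Islands outside genes had medians between them, with 442 (430 to 460) and 1269 (1203 to 1299). Their 5mC interval overlaps that of the pseudogene class, and their H3K27me1 interval that of the protein-coding class. RNA genes, with 40 islands, had 420 (397 to 491) and 1188 (1078 to 1353), with intervals that overlap those of the protein-coding class for both marks. Their 5mC interval also overlaps that of the pseudogene class. Width is not held constant here. Islands of 1200 bp, 30.9% of them in pseudogenes, had 537 and 1394 reads per kb. The values were 415 and 1172 at 600 bp and 450 and 1102 at 300 bp.

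**Figure D3:**
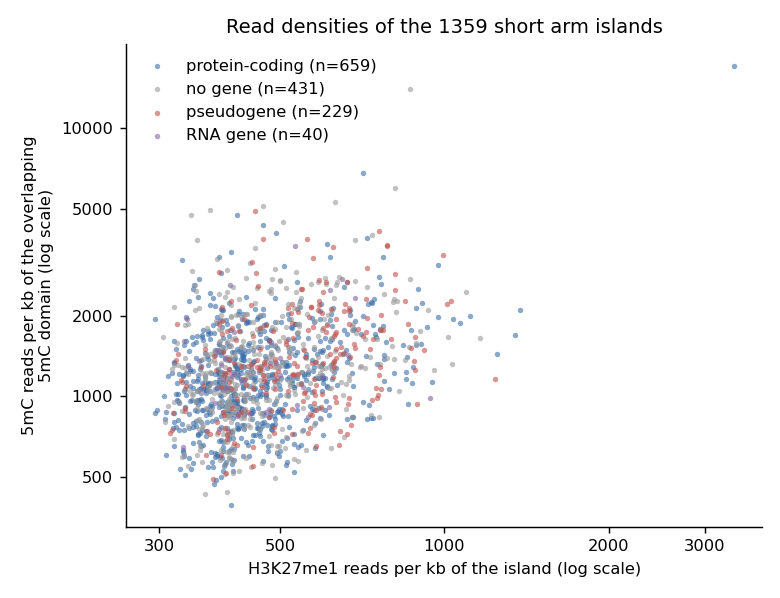
H3K27me1 reads per kb of each of the 1359 islands against 5mC reads per kb of the overlapping 5mC domain (both axes logarithmic), coloured by annotation class. The classes overlap widely, and the island in AT5G10340 stands apart at 3390 and 17002 reads per kb.

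The island with the most reads per kb of both marks was chr5:3252901-3253500 (TAIR10, as all coordinates here) in the protein-coding gene AT5G10340. It held 2034 H3K27me1 reads, or 3390 per kb, and its 5mC domain of 450 bp held 7651 reads, or 17002 per kb. The next highest H3K27me1 density on chromosome 5 was 1379 per kb in AT5G39160. How reads with several matches in the genome were handled is not given in the sources used here, so that a peak of this height over a sequence with further copies cannot be told apart from enrichment at the locus.

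The islands with the highest density of each mark on each chromosome are given as examples. Of the 10 islands that ranked first or second in 5mC density on their chromosome, 7 lay outside genes. The highest of these was chr2:19697701-19698000, with 13907 5mC reads per kb and 863 H3K27me1 reads per kb, 1030 bp from AT2G48160. Another, chr2:13233001-13233600 (5988 and 813), lay 4720 bp from CLE4, a gene for a small signalling peptide. The pseudogene island chr3:10406701-10407000 in AT3G28005 (4880 and 450) lay 1222 bp from the sugar transporter gene SWEET4. Chromosome 4 was led by chr4:7100101-7100700 (5300 and 630), 546 bp from AT4G11800, and chromosome 1 by chr1:6743101-6744000 (5131 and 466), 802 bp from AT1G19480. On chromosome 3 the first was chr3:17382901-17383500 (4943 and 372), outside genes. All of the 10 had at least 75% of their width in 5mC, and their H3K27me1 densities ran from 343 (chr1:5966101-5966700) to 3390 reads per kb. The second on chromosome 5 was chr5:2036401-2037600 in the protein-coding gene AT5G06630 (6770 and 710), and on chromosome 4 chr4:13418701-13419000 (4467 and 507), outside genes.

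Of the 10 that ranked first or second in H3K27me1 density, 4 lay in protein-coding genes, 3 in pseudogenes and 3 outside genes. On chromosome 1 the first was chr1:21124801-21126000, outside genes, with 1094 H3K27me1 and 2440 5mC reads per kb. On chromosome 2 it was chr2:580501-580800 in the pseudogene AT2G02210 (1237 and 1162). On chromosome 3 it was chr3:8848501-8849700 in the pseudogene AT3G24370 (918 and 1492), which lay inside a 5mC domain of 14700 bp and 6172 bp from the nearest protein-coding gene. On chromosome 4 it was chr4:11834401-11835000, outside genes (1032 and 1322). Those in the second place on chromosomes 1 to 4 had 882 to 1160 H3K27me1 reads per kb. They were chr1:23880601-23880900 in AT1G64340, chr2:1196401-1196700 outside genes, chr3:9618001-9618600 in the pseudogene AT3G26260 and chr4:901-1800 in AT4G00005, at the tip of the short arm.

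Along the arms, the islands thinned out away from the centromeres. In the first 0.5 Mb outside the pericentromere limits there were 39.5 islands per Mb, between 1 and 2 Mb 20.6 per Mb, and beyond 8 Mb 7.85 per Mb. Short arm domains without 5mC did not follow this course, with 37.2 to 57.1 per Mb over the distance classes and the highest value beyond 8 Mb. The wider arm domains with both marks went from 17 per Mb next to the limits to 1.09 per Mb beyond 8 Mb. The kind of island changed too: within 0.5 Mb of the limits 35.0% were in protein-coding genes and 44.2% outside genes, and beyond 8 Mb 60.6% and 23.1%.

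**Figure D4:**
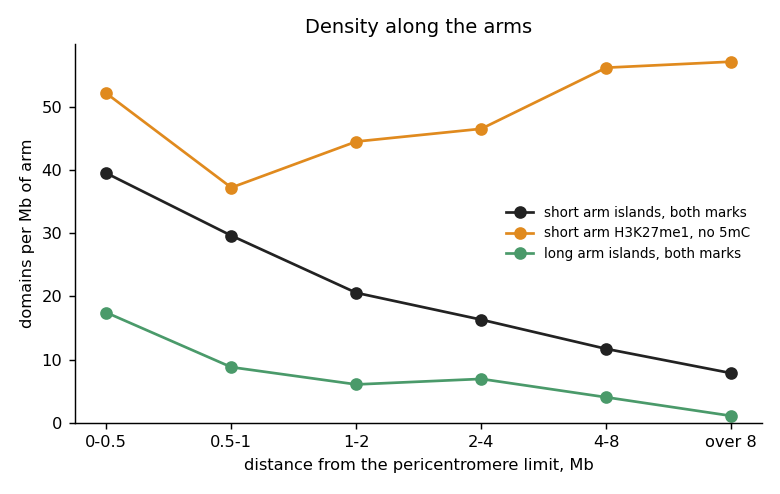
Domains per Mb of arm against distance from the pericentromere limit (Mb, 6 classes of unequal width) for the short arm islands, short arm H3K27me1 domains without 5mC and wider arm domains with both marks. The islands go from 39.5 per Mb next to the limit to 7.85 per Mb beyond 8 Mb.

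All chromosomes held islands at similar density. There were 370 islands on chromosome 1, 232 on chromosome 2, 248 on chromosome 3, 224 on chromosome 4 and 285 on chromosome 5. This came to 13.3 to 16.6 islands per Mb of arm. Chromosome 2 had the highest density and the highest share of islands among its short arm domains, 25.3%, and chromosome 5 the lowest of both, with 19.8%.

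Islands lay nearer to each other than the other short arm domains did to them. The nearest other island was a median of 11.1 kb away (9.6 to 13.2 kb), and 352 islands (25.9%) had another within 2 kb. From short arm domains without 5mC the nearest island was 34.2 kb away (32.7 to 35.7 kb), and 4.32% had an island within 2 kb. The median distance to any other H3K27me1 domain was 2.4 kb for both sets, while 32.5% of the islands and 26.9% of the domains without 5mC had one within 600 bp. The nearest wider domain with both marks was 51 kb from an island (46.5 to 57.9 kb) and 119.4 kb from a domain without 5mC (114.9 to 125.4 kb). Such a wider domain lay within 2 kb of 13.0% of the islands, and 50.8% of the islands had none within 50 kb.

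Islands in protein-coding genes were found in 636 genes, 2.54% of the 25040 on the arms, against 16.1% that held the midpoint of a short H3K27me1 domain without 5mC. Of these genes, 41 held at least 2 islands and 4 held 3. The islands reached gene edges more often than domains without 5mC. They lay wholly inside the gene in 74.4% of cases, against 93.3%, and the midpoint was within 300 bp of a gene edge in 25.2%, against 9.45%. The share at least 1000 bp from an edge was similar, 23.2% against 25%. The gene table gives no strand or exons, so that starts and ends, exons and introns were not told apart.

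The genic islands were of 3 kinds. The most frequent, with 409 islands (62.1%), lay wholly inside a gene and took up less than 50% of it; these genes were long, with a median of 3085 bp, and the islands had 410 H3K27me1 and 1046 5mC reads per kb. In 189 (28.7%) the island took up at least 50% of the gene, which had a median length of 955 bp, and the densities were 493 and 1343. The remaining 61 (9.26%) crossed an edge and took up less than 50% of a gene with a median length of 1655 bp, with densities of 487 and 1176. Among short domains without 5mC, 14.1% took up at least 50% of the gene.

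By gene length, islands were most frequent at both ends. In the shortest quintile of arm protein-coding genes (median 818 bp), 3.53% held an island midpoint (3.04 to 4.08%). The share was 1.62% (1.29 to 2.01%) in the middle quintile (median 2109 bp) and 3.35% (2.87 to 3.89%) in the longest (median 4249 bp). For short domains without 5mC the share went from 11.2% in the shortest to 19.1% in the longest quintile without a minimum between. Longer genes offer more bases: per Mb of gene, 45.4 genes held an island in the shortest quintile, 7.63 in the middle and 6.92 in the longest. The values for short domains without 5mC were also lower in longer genes, with 144.2, 78.5 and 39.5.

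**Figure D5:**
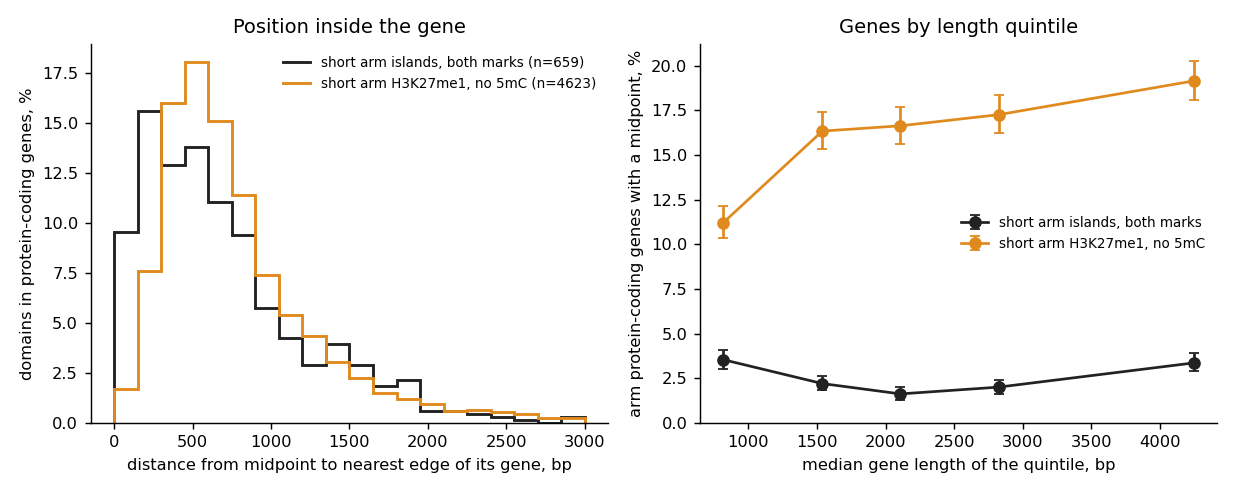
Left, distance from the domain midpoint to the nearest edge of its protein-coding gene (bp, bins of 150 bp, values beyond 3000 bp not shown) as a share of the 659 islands and of the 4623 domains without 5mC. Right, share of arm protein-coding genes with a midpoint (%, 95% exact binomial intervals) by quintile of gene length; the islands have their lowest value, 1.62%, in the middle quintile.

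In the genes with the most islands, some islands were 300 bp apart and others lay far from each other. DMT2, a paralog of the maintenance DNA methyltransferase gene MET1, held 3 islands that took up 44.0% of its 6134 bp: chr4:8148301-8149500, chr4:8150101-8150700 and chr4:8151001-8151900. Their H3K27me1 densities were 519, 355 and 563 reads per kb, and their 5mC densities 1311, 1066 and 1066, the last pair sharing a 5mC domain of 1800 bp. PHT1;8, a member of the PHT1 family of phosphate transporters, held 3 islands of 300 bp over 18.2% of the gene (413 to 493 H3K27me1 reads per kb). AT2G19360 held 3 over 41.9% and AT2G34100 3 over 8.60% of its 13956 bp.

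The other genes named by the count of islands held 2 each. KTF1, a factor of RNA-directed DNA methylation, had islands of 300 and 1200 bp in a shared 5mC domain of 2250 bp (467 and 377 H3K27me1 reads per kb). LOX2, a lipoxygenase of jasmonate synthesis, had islands of 900 and 600 bp (412 and 515). The spliceosome gene emb1507 had a pair of 900-bp islands near opposite ends of its 8673 bp (357 and 326). APD4 had 34.2% and AT4G02750 57.7% of their length in islands.

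Of the 676 protein-coding genes with at least 1 bp in islands (2.7% of those on the arms), 238 had at least 50% of their length there and 39 lay wholly inside. The 238 had a median length of 955 bp, and the width limit of 1200 bp makes long genes less able to reach this share. Of the 18 wholly covered genes of at least 600 bp, the longest was AT1G47765 (1187 bp), whose island chr1:17574901-17576100 had 373 H3K27me1 and 1124 5mC reads per kb. AT2G22440 (1151 bp) had 838 and 1559, and AT5G18937 (1072 bp) had 407 and 3440. The MADS-box gene AGL34 (1038 bp) lay in chr5:9393001-9394200 with 576 and 1283. The others among the 10 longest were AT3G18340, AT4G20670, AT4G20650, AT3G47920, AT2G34290 and AT5G39200, with 443 to 790 H3K27me1 reads per kb.

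Several gene families had islands in some members and not in others. These families were chosen after the gene names of the islands had been seen, and they carry no weight as a pattern. They were not limited to the arms, and a gene wholly within the pericentromere limits cannot hold an island by the rule. Of all arm protein-coding genes, 2.54% held an island midpoint, 21.1% had at least 1 bp in H3K27me1 domains and 13.1% in 5mC domains. Many of the family genes are longer than the arm median of 2109 bp, and a longer gene offers more bases. Of the 5 phytochromes, the red and far-red light receptors, PHYB, PHYD and PHYE each held an island, of 600, 1200 and 300 bp. Their H3K27me1 densities were 388, 309 and 450 reads per kb and their 5mC densities 1010, 877 and 720. PHYA had 1800 bp in H3K27me1 domains and no 5mC, and PHYC had 450 bp in 5mC domains and no H3K27me1. The midpoints of these 3 islands lay at least 1560 bp from the nearest gene edge.

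Of the 5 ethylene receptors, ETR2 held 2 islands over 45.0% of the gene (502 and 503 H3K27me1 reads per kb) and EIN4 held 1 over 26.3% (391). ETR1 had 450 bp of 5mC alone, and ERS1 and ERS2 had neither mark. Among the LOV-domain F-box proteins of the circadian clock and flowering, ZTL (418) and LKP2 (390) held an island, while FKF1 had H3K27me1 over 52.9% of the gene and no 5mC. Of the 8 genes listed here with a SUVH symbol, for SET-domain proteins, SUVH2 (352) and SUVH9 (460) held an island each. Both genes for subunit 1 of the origin recognition complex held an island, ORC1A (347) and ORC1B (362).

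Among the wall protein genes EXT3 and EXT12, extensins, an island of 900 bp took up 51% and 57.1% of the gene. EXT12 had 609 H3K27me1 and 3678 5mC reads per kb, and EXT3 had 337 and 1968. All 6 extensin genes with a numbered EXT symbol had H3K27me1 and 5 had 5mC; EXT6 had 94.0% of its length in each list, without an island. Larger families were counted by the genes listed here with the family symbol. Islands were in 2 of 20 CHX cation exchanger genes (CHX18 and CHX19), 2 of 14 PERK receptor kinase genes, 2 of 7 PIP5K lipid kinase genes and 1 of 9 PHT1 genes. The numbers in the CHX, PERK and PIP5K symbols have gaps, so that these need not be whole families. Among the same genes H3K27me1 touched 16, 7, 5 and 7, where 21.1% of all arm protein-coding genes have at least 1 bp in its domains.

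The histidinol-phosphate aminotransferase genes of histidine synthesis, HPA1 and HISN6B, both held islands. HISN6B had 92.5% of its 2219 bp in 5mC domains, with islands of 300 bp at 607 and 417 H3K27me1 reads per kb, and HPA1 had 48.1% in 5mC and 1 island at 517. Related genes can share reads, and the handling of reads with several matches is not known here.

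The islands were packed most densely in arrays of neighbouring genes. Of 925 arm windows of 100 kb, 613 held islands, 290 of them a single island and 51 at least 5. The densest window, on chromosome 4, held 36 islands between 11048701 and 11093700, over 45.0 kb. These are the genes AT4G20530 to AT4G20670, where 19 of 20 protein-coding genes held an island midpoint and 36 of the 38 H3K27me1 domains were islands. The genes come in repeated lengths, with 7 of 1013 bp, 6 of 1336 bp and 5 of 861 bp, and the islands repeat with them: 15 were 300 bp wide with 149 to 222 reads, and 12 were 1200 bp wide with 530 to 866 reads. H3K27me1 densities ran from 399 to 740 reads per kb (median 580) and 5mC densities from 780 to 3903 (median 1120).

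A further array on chromosome 5 ran from GLP6, a germin-like protein gene, to AT5G39200 and includes the germin-like gene GER2. Of its 11 protein-coding genes, 9 held an island midpoint, with 10 islands among 13 H3K27me1 domains between 15653101 and 15695100. H3K27me1 densities were 588 to 1379 reads per kb (median 854) and 5mC densities 839 to 2102 (median 1194). Single genes had 63.7% (GLP6) to 100% (AT5G39170 and AT5G39200) of their length in islands, apart from AT5G39180, where the H3K27me1 domain was no island. Both arrays were taken up after the densest windows were seen, and reads of near-identical copies may have been assigned to any of them.

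The next most crowded window lay on chromosome 2, within 1 Mb of the pericentromere limit. Between 0.5 and 0.6 Mb it held 13 islands, 10 of them in pseudogenes, and 5 of these in AT2G02210. Among the 5 tightest groups of at least 3 islands, each spanning 2.4 kb, were chr2:578401-580800 in AT2G02210 (337 to 1237 H3K27me1 reads per kb) and chr3:4276801-4279200 in the pseudogene AT3G13250 (335 to 408). The other 3 lay in the array of chromosome 4.

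Pseudogenes with islands numbered 203, or 16.2% of the 1254 on the arms, and 21 of them held at least 2. In 124 of the 229 pseudogene islands (54.1%), the island took up at least 50% of the pseudogene. Pseudogenes with an island had a median length of 1069 bp, against 1145 bp for all arm pseudogenes. The gene table does not tell transposon copies from other pseudogenes.

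Of the 40 islands with the midpoint in an RNA gene, 27 were in genes for long non-coding RNAs. The microRNA gene MIR8171 lay wholly inside chr2:16890301-16890600 (380 H3K27me1 and 947 5mC reads per kb), and MIR843 had 99% of its length in chr3:17742001-17742300 (423 and 1147). Both islands had the smallest width, 300 bp. The long non-coding RNA gene AT5G03925 lay wholly in an island with 687 and 2315 reads per kb.

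The 431 islands outside genes lay at some distance from protein-coding genes. The median distance from the midpoint to the nearest protein-coding gene was 1052 bp (964 to 1140 bp), with quartiles of 653 and 1867 bp and a maximum of 8072 bp. For all arm bases outside genes it was 582 bp. Of the islands, 16.7% lay within 500 bp of a protein-coding gene, against 45.4% of those bases, and 77.5% lay within 2000 bp, against 86.9%. The 78 short arm domains without 5mC outside genes had a median of 835 bp (585 to 1031 bp), an interval that overlaps that of the islands. Of these domains, 30.8% lay within 500 bp and 82.1% within 2000 bp. Narrow pericentromeric domains with both marks and outside genes were much farther off, with a median of 6204 bp, and wider arm domains had 2070 bp (1063 to 2891 bp). Where an island lies wholly clear of genes, its own width keeps the midpoint away from them, which lowers the share at short distances.

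The listed genes linked to DNA methylation held no islands, which is close to the share in all arm genes. The 34 genes were listed as methylated repeats and epialleles, imprinted genes, genes with heterochromatin in an intron, demethylases and their targets, and factors of DNA methylation. Of these, 0 had a base in an island, where 2.7% of arm protein-coding genes do. An island within 2000 bp was found for 0, where 7.99% of arm protein-coding genes have one inside or within that distance. With 34 genes, either share would amount to few genes, so the absence is not read as a trait of the list. QQS and DCL3 lie in pericentromeres and cannot hold an island by the rule. The list itself was touched by H3K27me1 in 15 genes and by 5mC in 13, where 21.1% and 13.1% of all arm protein-coding genes have at least 1 bp in these domains. The listed genes are long, with a median of 4485 bp, against 2109 bp for all on the arms, and a longer gene offers more bases to touch.

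The listed loci missed the rule for different reasons. At FWA, a homeobox gene silenced by methylated repeats, and SDC, an F-box gene silenced in the same way, the H3K27me1 domains of 300 to 600 bp had 0% of their width in 5mC. Of the 4 genes with heterochromatin in an intron, 3 had domains that were too wide: 2 of 3000 bp in the disease resistance gene RPP7, wholly within 5mC, 5100 bp in AT3G05410 and 4200 bp in AT1G11270. AT1G11270 had a further domain of 900 bp with 16.7% in 5mC, and IBM1 had no H3K27me1 inside but a domain of 600 bp at a distance of 488 bp with 0%. At BNS the domain was 1800 bp wide with 91.7% in 5mC. QQS had a domain of 300 bp wholly within 5mC, but in the pericentromere. ROS1, the demethylase gene that is itself controlled by methylation, had a domain of 1200 bp with 12.5% in 5mC and another of 600 bp with 0%.

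Of the 10 listed factors of DNA methylation, 5 had H3K27me1, in each case with less 5mC than the rule asks. Factors outside the list, such as KTF1, SUVH2 and SUVH9 above, did hold islands. RDR2, the RNA polymerase that makes precursors of small RNAs, had a domain of 3000 bp with 40% in 5mC, and NRPD1, which encodes the catalytic subunit of polymerase IV, one of 2100 bp with 42.9%. The domains of NRPE1, its counterpart in polymerase V, of MET1 and of the pericentromeric gene DCL3 had 0%. The domain of the imprinted gene HDG3 and that of HDG8 also had 0%. AGO4, DRM2, CMT2, CMT3 and DDM1 had no base in H3K27me1 domains.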

How the data were processed

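Read counts per domain were deposited by the authors as whole numbers, 1 per domain and mark, with no value per replicate. Bowtie (a read aligner), SICER (a caller of broad domains) and the build TAIR10 are named per the submitters' processing notes. Versions, thresholds, the use of input, pooling and the handling of reads with several matches are not given in the sources at hand. The reads in domains sum to 12706852 (H3K27me1) and 28021211 (5mC); these sums are not library depths. Labels of 6 samples gave the groups, and nothing in them says whether samples came from separate plants.

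Widths, overlaps, midpoints and reads per kb were computed with Python 3.11.15, numpy 2.4.6, pandas 2.3.3 and scipy 1.17.1, and plotted with matplotlib 3.10.9. 5mC reads per kb are those of the whole 5mC domains over an island. At a midpoint, protein-coding genes took precedence over pseudogenes and these over RNA genes, with genes from RefSeq (assembly TAIR10.1). Its offset to the lists was checked: the best overlap with pseudogenes lay within 100 bp in 24 of 24 segments of 5 Mb for H3K27me1 and 22 of 24 for 5mC (largest 300 bp). The selection of islands was tested on simulated data.

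The members and the gene lists were chosen with earlier results of these data known; the families and arrays were chosen after island positions were seen. Named items follow a rule: the genes of the lists, the first 2 islands per chromosome by reads per kb of each mark, the 10 genes with most islands, the 10 longest wholly covered genes of at least 600 bp, and the 5 tightest groups. Others named (microRNA genes, AT5G03925, families and arrays) were chosen after their values were seen. No test was run. Sequence and base composition were not analysed here.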

Additional observations from a re-analysis of the deposited data

How the results depend on the processing

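Under 10 alternative settings, 37 of 66 recalculated shares and medians stayed within the counting interval of the value reported and 29 did not. Of 9 recalculated numbers of islands, 6 were within 1.5 times of the 1359 reported (946 to 1537) and 3 were not. Limiting islands to 600 bp gave 12.6% in pseudogenes, 36.7% outside genes, 61.5% wholly within 5mC, and 433 H3K27me1 and 1144 5mC reads per kb; at 900 bp the 5mC density was 1176, and a limit of 1500 bp moved no share or median beyond its interval. Accepting any overlap with 5mC gave 53.7% in protein-coding genes, 28.4% outside genes, 51.3% wholly within 5mC and 433 H3K27me1 reads per kb. Asking for at least 80% gave 889 islands, with 41.1% in protein-coding genes, 19.7% in pseudogenes, 35.8% outside genes, 88.8% wholly within 5mC, and 472 and 1283 reads per kb. At least 1 Mb outside the pericentromere limits, 53.7% were in protein-coding genes, 14.5% in pseudogenes and 28.7% outside genes. With the 50% of the 5mC list that had most reads per kb there were 842 islands, with 44.7% in protein-coding genes, 19% in pseudogenes, 62.9% wholly within 5mC, and 473 and 1491 reads per kb. With the same part of the H3K27me1 list there were 679, with 43.0%, 23.9%, 67.6%, 556 and 1339. These settings change which domains count as islands; beyond that, the cause was not tested. Leaving out both gene arrays, an alternative chosen after seeing the data, left 1313 islands, with 47.3% in protein-coding genes.

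No paired analysis was possible because the lists hold no value per replicate; leaving out a replicate was not possible for the same reason. Base composition was not computed, since no genome of the build of the lists was at hand. Weakly enriched domains below the authors' calling limit are not in the lists, so that the lists do not show sites below it.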
